A study of Mus musculus with 2 samples.

Results

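Immediate early genes are the genes that a cell transcribes within minutes of a stimulus, before any new protein has been made. Of the 10 immediate early genes looked for by symbol (*Fos*, *Fosb*, *Jun*, *Junb*, *Jund*, *Egr1*, *Ier2*, *Ier3*, *Atf3* and *Btg2*), 1 matched one of the 10666 genes of the expression table, namely *Fosb*. The other 9 were not analysed here, so *Fosb* is described in depth and read beside 18 further immediate early genes that the table holds. These come from a list of 42 symbols, in which *Ccn1* and *Ccn2* also stand under their older symbols. The cells came from neurospheres, spheres of neural stem cells and their progeny that grow in suspension, started from wild-type C57BL/6 mouse embryos (dorsal telencephalon, embryonic day 14.5). The medium held 10 ng/ml EGF and 10 ng/ml bFGF, and both cultures received it, so no unstimulated cells are at hand. Single-cell RNA-seq was done on 2 replicate cultures of this 1 condition, with 5748 cells in culture 1 and 7057 in culture 2. Nothing in the sources used here says that the cultures came from separate litters, there is no second condition, and cells are not replicates, so every comparison is a description within and between the cultures, without a test.

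Growth factors such as EGF and bFGF act through receptor tyrosine kinases, Ras and the kinases ERK1 and ERK2, which phosphorylate factors already bound at the promoters of immediate early genes. FosB, the product of *Fosb*, is a leucine zipper protein that pairs with a Jun protein to form the transcription factor AP-1. The transcripts of this class are short-lived, so a cell holds them only for a short time after each pulse of signalling, and dissociation of a tissue into single cells is itself known to induce them.

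*Fosb* (ENSMUSG00000003545) lies on the minus strand of chromosome 7 at chr7:19302696-19310051 in GRCm38, with 7 annotated transcripts of up to 5 exons and 0 overlapping genes. Its transcripts are counted together in these 3′ libraries. The 250 bases before its start in RefSeq (GRCm38.p6, chr7:19310046-19310295, minus strand) are shown because they are the upstream sequence of the gene that all values below refer to, and the 5 bases TGACG, the half-site of a cyclic AMP response element, are in capitals.
Fosb: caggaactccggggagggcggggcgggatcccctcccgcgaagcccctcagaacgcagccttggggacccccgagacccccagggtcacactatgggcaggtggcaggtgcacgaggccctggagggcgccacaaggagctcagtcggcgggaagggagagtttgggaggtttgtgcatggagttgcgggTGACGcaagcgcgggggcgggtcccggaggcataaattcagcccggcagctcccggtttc
TGACG occurs 1 time here on either strand, starting 60 bases before the start of transcription, and it occurs in the same window of 17.9% of 32536 RefSeq promoters. The full palindrome TGACGTCA (in 1.56% of the promoters), the AP-1 site TGANTCA (6.73%) and the CArG box bound by serum response factor (1.48%) were searched on both strands too and had 0 matches in these 250 bases. Such matches describe the letters of this window and say nothing of which factors act on the gene.

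The cells carried the markers of neural progenitors, with *Fabp7* detected in 100% and 99.96% of cells in cultures 1 and 2, *Vim* in 99.2% and 99.9%, *Nes* in 93.3% and 89.8%, and *Pax6* in 21.1% and 23.1%. *Olig2*, a factor of the oligodendrocyte lineage, was detected in 97.3% and 91.9%. Genes of more mature oligodendrocyte progenitors and of neuroblasts were rarer. *Pdgfra* was detected in 8.77% and 1.81% of cells, *Sox10* in 4.26% and 0.751%, and *Dcx* in 7.34% and 1.56%. *Cspg4*, also a marker of oligodendrocyte progenitors, went the other way, with 11.8% and 13.7%. The astroglia marker *S100b* was detected in 18.6% and 6.65%. Markers of microglia, endothelium, mesenchyme and red blood cells were not analysed here. Total UMIs per cell (a UMI stands for 1 captured transcript molecule) had a median of 19477 in culture 1 and of 14637 in culture 2. There were 48 barcodes that occurred in both cultures, and the 96 cells that carry them include 5 with *Fosb*.

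*Fosb* was a rare transcript. In culture 1 it was detected, with a value above 0, in 237 of 5748 cells (4.12%, exact 95% binomial interval 3.62 to 4.67%), and in culture 2 in 233 of 7057 cells (3.30%, 2.90 to 3.75%). Over both cultures this is 470 of 12805 cells, or 3.67% (3.35 to 4.01%), and 3.66% without the cells that share a barcode. The intervals of the cultures overlap, and they cover counting error only. Ordered by the share of cells, *Fosb* ranked 9140 of 10666 genes, and 14.3% of the genes were detected in a smaller share. No cell class in these cultures is known to lack *Fosb*, so the share of detections that free RNA in the droplets could give was not measured.

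Averaged over all cells, the normalized *Fosb* value was 0.0346 in culture 1 and 0.0337 in culture 2, on the linear scale that the authors had scaled to the depth of each cell, on which all genes of a cell sum to a median of 11598 and 11399. Among the 237 cells of culture 1 with *Fosb*, the value lay between 0.112 and 9.33, with 0.684 as its median and 0.464 and 0.993 as its quartiles. Among the 233 cells of culture 2 it lay between 0.251 and 5.08, with 0.853 as its median and 0.537 and 1.26 as its quartiles. The 2 ranges overlap widely. Values above 1 were held by 57 cells in culture 1 (24.1% of those with *Fosb*) and by 101 in culture 2 (43.3%). Culture 1, where a larger share of cells had *Fosb*, thus held a smaller share of values above 1 among them. Because values are scaled to depth, the same count gives a larger value in a shallower cell, so a value above 1 does not by itself mark more *Fosb*. Culture 1 is also the deeper library, so that culture and depth cannot be told apart here.

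Cells with *Fosb* were deeper than the other cells in both cultures. Their median total was 22682 UMIs against 19316 in culture 1, and 15739 against 14611 in culture 2. By quartile of total UMIs within culture 1, the share of cells with *Fosb* was 1.11% (0.638 to 1.80%), 3.76%, 4.73% and 6.89% (5.63 to 8.32%). In culture 2 it was 2.95% (2.21 to 3.85%), 2.78%, 2.72% and 4.76% (3.82 to 5.86%). The intervals of the shallowest and the deepest quartile are far apart in culture 1, and in culture 2 they overlap by a narrow margin. The mean normalized value did not follow the share. It was 0.0164, 0.0452, 0.0391 and 0.0379 from the shallowest to the deepest quartile of culture 1, and 0.0439, 0.0346, 0.0230 and 0.0335 in culture 2, where the shallowest cells had the highest mean. No order of *Fosb* expression over depth was therefore read from the shares. Within the cells called S or G2M by Seurat, the share went from 0.536% in the shallowest to 6.60% in the deepest quartile of culture 1 and from 2.72% to 4.85% in culture 2, and within those called G1 from 1.74% to 7.80% and from 3.10% to 4.61%.

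**Figure D1:**
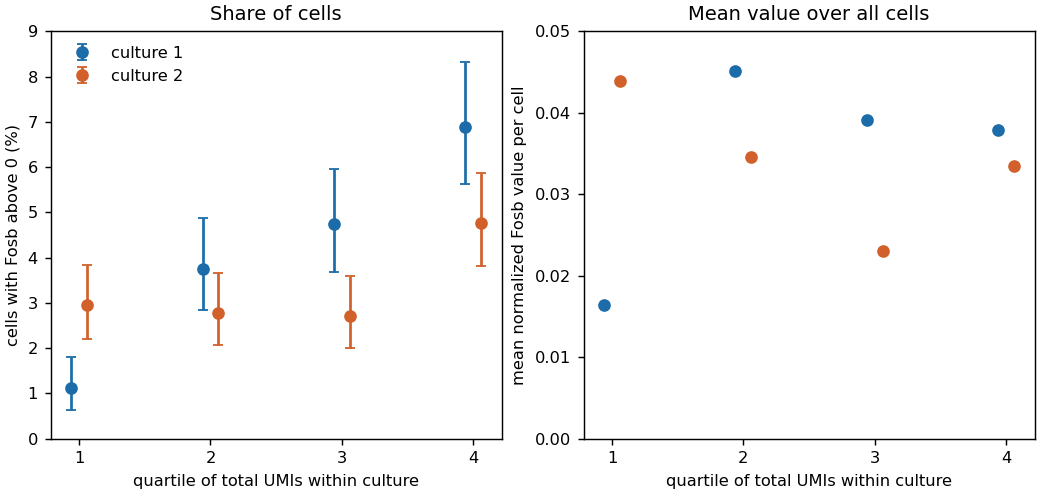
Left, the percentage of cells with *Fosb* above 0 in each quartile of total UMIs (points, with exact 95% binomial intervals as bars), and right, the mean normalized *Fosb* value over all cells of the quartile, in both cultures. The share in culture 1 goes from 1.11 to 6.89% while the mean of the last 3 quartiles stays between 0.0379 and 0.0452, and in culture 2 the shallowest quartile has the highest mean, 0.0439.

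Each cell has a deposited position θ on the cell cycle, an angle over the full circle, which allows *Fosb* to be followed through the cycle. In culture 1 the share of cells with *Fosb* in 8 classes of 0.25π was 4.48%, 3.20%, 3.39%, 4.03%, 4.14%, 2.35%, 0% and 4.75%, in order of position. In culture 2 it was 2.97%, 3.92%, 1.72%, 4.03%, 3.75%, 1.43%, 2.65% and 3.49%. The exact 95% intervals of all 8 classes overlap one another within each culture. The 0% of culture 1 stands for 0 of 64 cells from 1.5π to 1.75π, which allows a share of up to 4.69% by the limit of 3 counts and of up to 5.60% by the exact interval. The class from 1.25π to 1.5π rests on 2 of 85 cells in culture 1 and 4 of 279 in culture 2. These sparsely filled classes were also shallow, with medians of 14812 and 14111 UMIs in culture 1 against 22966.5 in the deepest class, from 0.75π to π, and the part of depth in their shares was not tested.

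**Figure D2:**
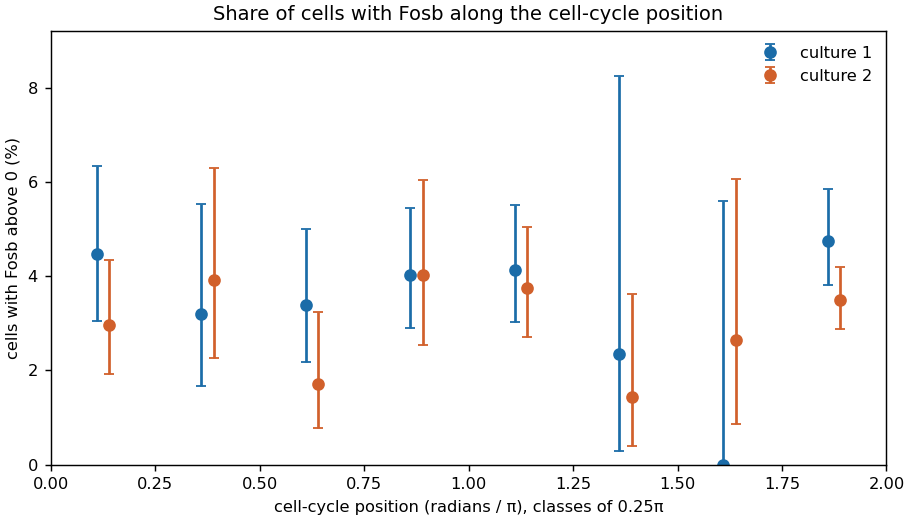
Percentage of cells with *Fosb* above 0 (y axis) in 8 classes of cell-cycle position in units of π (x axis), with points for each culture and bars for exact 95% binomial intervals. The intervals of all classes overlap within each culture, and the widest belong to the 85 and 64 cells of culture 1 between 1.25π and 1.75π.

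Little of the variation of *Fosb* followed the position. A fit of 2 harmonics of θ to log2(value + 1) had an R² of 0.00296 in culture 1 and 0.000927 in culture 2, and 0.00335 and 0.00113 as a partial R² with depth in the fit. Of the members, 0 of the 1 matched passed a threshold of 0.05 for the R² of each culture, where 428 of the 10666 genes (4.01%) passed it. The periodic loess line of *Fosb* over both cultures ran between 0.0196 and 0.0375 on the log2(value + 1) scale, a range of 0.0179, with its maximum at 0.035π and its minimum at 1.47π. The line of culture 1 had a range of 0.0157 with a maximum at 0.035π and a minimum at 1.205π. That of culture 2 had a range of 0.00914 with a maximum at 0.03π and a minimum at 0.61π. At the span of these lines the maxima of the cultures lie close together and the lowest points do not. Each line had a further dip of nearly the same depth, at 0.6π in culture 1 (0.0268) and at 1.36π in culture 2 (0.0255). With a span of 0.1 the minima of cultures 1 and 2 were at 1.645π and 1.7π, and the maxima at 0.015π and 1.955π. With a span of 0.5 the minima were at 1.025π and 0.97π, and the maxima at 1.965π and 0.16π. The place of the minimum depended on the span, so no difference between the cultures is read from it.

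The stage calls divided the cells in other ways. By Seurat, *Fosb* was detected in 4.63% (3.83 to 5.54%) of the G1 cells, 3.95% (3.09 to 4.97%) of the S cells and 3.51% (2.65 to 4.56%) of the G2M cells of culture 1. In culture 2 the shares were 3.33% (2.79 to 3.94%), 3.13% (2.29 to 4.17%) and 3.38% (2.57 to 4.35%). The G1 share is the highest of culture 1 and the G2M share the highest of culture 2, and all intervals overlap within a culture. By the 5-stage method SchwabeCC, the G2 cells had 3.90% (2.29 to 6.17%) and 5.91% (4.08 to 8.25%) in cultures 1 and 2, and the cells from M to G1 had 2.96% (1.92 to 4.34%) and 1.99% (1.27 to 2.98%). These 2 stages are apart by their intervals in culture 2 and overlap in culture 1, where the mean value of the M to G1 cells, 0.0386, lies above that of the G2 cells, 0.0315. Cells to which SchwabeCC gave no stage had 5.18% (4.34 to 6.13%) and 3.40% (2.79 to 4.09%). Their interval just clears that of the M to G1 cells in culture 1 and overlaps it in culture 2, so no pair of stages stood apart in both cultures.

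The 18 other immediate early genes covered a far wider range of detection. A 3′ UMI library counts each captured molecule once, whatever its length. Other differences between genes in how well their transcripts are captured and counted were not measured. The most widely detected was *Plk2*, a polo-like kinase, in 61.8% and 50.05% of cells in cultures 1 and 2. *Zfp36l1*, which speeds the decay of AU-rich mRNAs, was detected in 48.1% and 39.8%. *Nfkbia*, the inhibitor that holds NF-κB in the cytoplasm, was detected in 43.1% and 42.5%, and *Myc*, a growth-promoting transcription factor, in 40.0% and 27.2%. In the middle of the range stood *Tob1*, an antiproliferative protein, *Homer1*, a synaptic scaffold, *Klf10*, a zinc finger repressor, *Trib1*, a pseudokinase, and *Dusp1*, a phosphatase that switches off MAP kinases, all between 20.5% and 34.2% in culture 1 and between 23.1% and 30.9% in culture 2. Lower still were *Sgk1*, a serum-induced kinase, in 11.95% and 9.89%, *Ccn1* in 11.5% and 10.5%, and *Per1*, a clock gene, in 7.67% and 8.42%. At the low end were the other Fos family genes and the nuclear receptors of the Nr4a family. *Fosl2* was detected in 4.37% and 8.05% of cells, *Nr4a1* in 7.20% and 4.11%, *Nr4a2* in 4.42% and 4.75%, *Fosb* in 4.12% and 3.30%, *Fosl1* in 1.15% and 2.22%, and *Nr4a3* in 0.731% and 0.779%. *Fosb* was thus detected in a smaller share of cells than 16 of the 18 genes in both cultures, with *Fosl1* and *Nr4a3* below it. In culture 1 the shares of *Fosl2* and *Nr4a2* lie within the interval of *Fosb* (3.62 to 4.67%), and in culture 2 those of 0 of the 18 genes lie within it (2.90 to 3.75%).

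**Figure D3:**
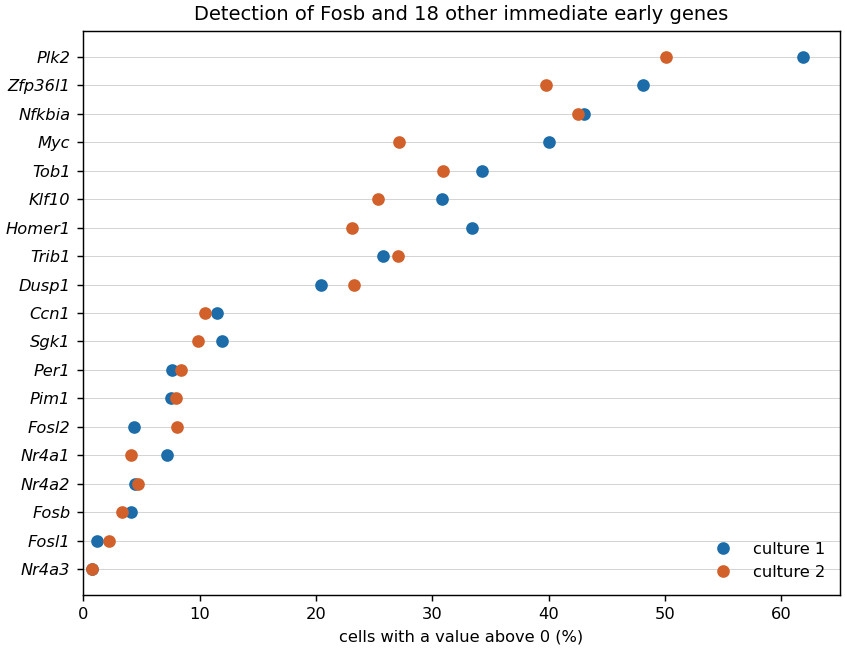
Percentage of cells with a value above 0 (x axis) for *Fosb* and 18 other immediate early genes (y axis), with a point for each culture. *Plk2* is at the top with 61.8 and 50.05% and *Nr4a3* at the bottom with 0.731 and 0.779%, and *Fosb* is the third gene from the bottom.

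None of the 18 passed the same R² threshold (0 of 18, where 4.01% of all genes did). The highest values belonged to *Pim1*, a survival kinase, with 0.0241 and 0.0311, and to *Tob1*, with 0.0268 and 0.0215. The following values of these 2 genes are given because they stand at the top of the list, a choice made after they were seen. *Tob1* was detected in 42.0% and 36.7% of the cells between 1.75π and 2π and in 27.1% and 19.8% of those between 0.5π and 0.75π, and its loess line had a range of 0.303 and 0.260 on the log2(value + 1) scale with maxima at 1.7π and 1.725π. *Pim1* went the other way, with 1.84% and 3.11% of the cells between 1.75π and 2π and 13.3% and 14.5% of those between π and 1.25π. Its line had a range of 0.118 and 0.136 with minima at 1.725π and 1.795π. The range of the *Fosb* line, 0.0157 and 0.00914, is small beside both. The mean of *Fosb* on this scale, 0.0336 and 0.0314, is also below that of *Tob1* (0.416 and 0.385) and of *Pim1* (0.0827 and 0.0845). The ranges were not scaled to these levels. *Fosb* was detected in 4.75% and 3.49% of the cells between 1.75π and 2π and in 4.14% and 3.75% of those between π and 1.25π. *Pim1* was detected in 7.57% and 7.96% of all cells and *Fosb* in 4.12% and 3.30%, and the part of sparseness in these differences was not tested.

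Whether *Fosb* was found in the same cells as other immediate early genes was then described by 2 measures, the correlation over cells and the number of cells with both genes. The Pearson correlation r of log2(value + 1) over the 5748 cells of culture 1 and the 7057 of culture 2 shares libraries and depth between genes and is computed on sparse values. It was positive in both cultures for 8 of the 18 genes and negative in both for 3, with medians of 0.0115 and 0.00153. Over all genes, 27.1% were positive and 25.6% negative in both cultures, and the medians were 0.00127 and -0.000507. Ordered by the lower r of the cultures, the highest values were those of *Ccn1*, a secreted matrix protein induced by serum, with 0.0310 and 0.0430, of *Dusp1* with 0.0178 and 0.0620, and of *Fosl2* with 0.0294 and 0.0147. An r of at least 0.1 with *Fosb* in both cultures was reached by 0 of the 18 genes and by 0 of the 10665 other genes of the table (0%), and the highest r in a single culture was 0.0993. Among the 153 pairs of the 18 genes themselves, 0 reached 0.1 in both cultures, where 0.173% of all gene pairs did. By the lower r of the cultures, the highest of these pairs were *Fosl1* with *Fosl2* (0.0702 and 0.0682) and *Klf10* with *Trib1* (0.0655 and 0.0738). All of these correlations are weak and describe sparse counts.

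Counts of cells with both genes were read against the number given by cells without *Fosb* of the same depth, in 10 depth classes of each culture. *Ccn1* was present in 44 of the 237 cells with *Fosb* in culture 1, which is 18.6% (13.8 to 24.1%), where depth-matched cells gave 13.4%. In culture 2 it was present in 42 of the 233 cells, 18.03% (13.3 to 23.6%), where depth-matched cells gave 10.8%. The interval lies above the depth-matched share in both cultures, by a narrow margin in culture 1. Of the 16 list genes with at least 5 depth-matched cells in both cultures, *Ccn1* was the 1 for which this held, and over all 9570 such genes it held for 16 (0.167%).

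*Dusp1* was present in 65 cells with *Fosb* against 54.0 depth-matched in culture 1 and in 80 against 56.9 in culture 2. *Fosl2* was present in 23 against 12.2 and in 28 against 20.7. *Nr4a1*, chosen after its values were seen, was present in 25 against 18.3 and in 14 against 11.4. For each of these 3 genes the interval reaches the depth-matched share in at least 1 culture. The observed number was at least 1.5 times the depth-matched number in both cultures for 0 of the 16 list genes, where this held for 8 of the 9570 genes (0.0836%). It was above the depth-matched number by any amount in both cultures for 9 of the 16, against 26.3% of all genes. An interval below the depth-matched share in both cultures was seen for 0 of the 16 and for 15 of the 9570 genes (0.157%).

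**Figure D4:**
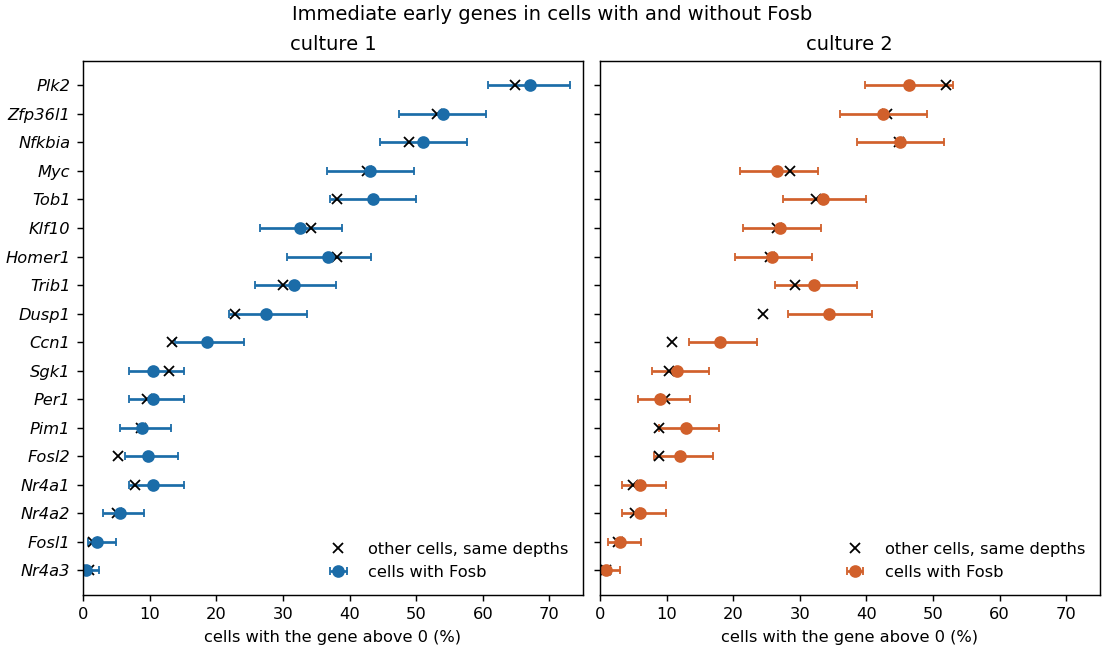
Percentage of cells with each of 18 immediate early genes above 0, in cells with *Fosb* (points, with exact 95% binomial intervals) and in cells without *Fosb* standardised to the same depths (crosses), in culture 1 (left) and culture 2 (right). For *Ccn1* the cross lies below the interval in both panels (13.4 against 18.6% and 10.8 against 18.03%), and for most genes it lies within it.

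Counted per cell, the 237 cells of culture 1 with *Fosb* had a mean of 4.64 of the 18 genes, the cells without it 3.91, and the latter 4.37 once standardised to the depths of the former. In culture 2 the means were 3.93, 3.44 and 3.69. Depth thus went along with the larger part of the difference in culture 1 and with about as much as remained in culture 2.

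Outside the immediate early genes, the 10 genes with the highest r with *Fosb* in the lower of the cultures were *Pla2g7*, *Dbi*, *Pbxip1*, *Scd2*, *Plcd4*, *Gja1*, *Cdh13*, *Atp5l*, *Chst3* and *Aldh1l1*. *Pla2g7* had 0.0449 and 0.0429, and *Gja1*, the connexin of astrocyte and radial glia gap junctions, 0.0374 and 0.0408. *Aldh1l1*, a folate enzyme used as an astrocyte marker, had 0.0369 and 0.0346, while *S100b*, the single listed astroglia marker that was analysed, had 0.0204 and -0.00416. The 5 at the other end were *Hmgb1*, a chromatin protein (-0.0709 and -0.0530), *Pbk*, a mitotic kinase (-0.0439 and -0.0386), *Hmgn1*, *Sumo2* and *Tubb5*. None of these values passes 0.1, and across the 10665 genes the r of culture 1 and that of culture 2 had a Pearson correlation of 0.122, with genes that are not independent of one another.

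The counts of cells with both genes are given next for 4 genes chosen after their values were seen, as a description and not as separate support for r, since both measures come from the same cells. *Gja1* was present in 52.3% and 24.9% of the cells with *Fosb*, where depth-matched cells gave 43.9% and 18.2%. *Chst3*, a chondroitin sulfotransferase, was present in 8.44% and 8.58%, where they gave 3.96% and 4.66%. *Cdc20*, an activator of the anaphase-promoting complex, was present in 40.5% and 30.5%, where they gave 50.3% and 38.5%, and *Pclaf*, a PCNA-binding factor, in 64.98% and 53.6%, where they gave 75.4% and 64.9%. *Gja1* and *Chst3* are among the 16 genes whose interval lies above the depth-matched share in both cultures, and *Cdc20*, *Pclaf* and *Pbk* are among the 15 whose interval lies below. The 15 also include *Ddx24*, *Dkc1*, *Ercc1* and *Sec13*, and no common function is read from either set.

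The pathway around *Fosb* was read from lists of its known upstream and neighbouring genes, with a count of positive and negative r in both cultures, to be set beside the 27.1% and 25.6% of all genes. Of the 25 receptors, kinases and factors upstream (of 28 listed), 16 were positive and 3 negative, with medians of 0.00763 and 0.00828. *Egfr*, the receptor for the EGF in the medium, had 0.0338 and 0.0285 and was present in 153 of the cells with *Fosb* against 133.0 depth-matched in culture 1 and in 104 against 89.0 in culture 2. *Fgfr1*, a receptor for bFGF, had 0.0297 and 0.0101, with 161 against 160.9 and 128 against 127.7 cells. Of the 10 ERK feedback genes (of 11), which ERK signalling induces and which damp it, 6 were positive and 1 negative, with medians of 0.00448 and 0.0130, and *Spry4* had 0.0154 and 0.0235.

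Of the 6 genes of AP-1 and related leucine zipper factors (of 13), 4 were positive and 1 negative. *Maf*, the highest by the lower r of the cultures, had 0.0301 and 0.02003. The Fos family genes *Fosl1* and *Fosl2*, 2 of the 6, are also in the list of immediate early genes. Of the 8 targets of p53 (of 10), 6 were positive and 1 negative, with *Cdkn1a*, an inhibitor of cyclin-dependent kinases, at 0.0677 and 0.0244, and 3 of these 8 passed the R² threshold for the position. Of the 7 heat shock genes (of 11), 0 were positive and 5 negative, with medians of -0.00843 and -0.0139. The 5 ATF4 stress genes (of 9) gave 1 and 1. Of the cell type markers, the 6 for neural progenitors gave 4 positive and 0 negative and the 4 for oligodendrocyte progenitors 0 and 4. Neither the 2 neuroblast markers nor the single astroglia marker had the same sign in both cultures. These lists are small, their genes share the depth of the same cells, and nothing particular to a list is read from the counts.

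Of the 22081 genes with 1 exon in every transcript in the annotation, 2 were analysed. The share of annotated genes with more exons that were analysed was not computed, so this count has no share to be set beside. *Jun*, *Jund* and *Ier2* are annotated with 1 exon, while *Fosb* has up to 5 and *Fos*, *Egr1*, *Junb*, *Atf3*, *Btg2* and *Ier3*, which were not analysed here either, have 2 or more. The values are spliced counts in origin, and the part of exon number in which of the 10 genes could be analysed was not tested.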

How the data were processed

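Single-cell RNA-seq data (10x Chromium 3′ chemistry, version 2 per the labels and version 3 in the paper) of 2 replicate cultures were analysed. Per the submitters' processing notes and the paper, the authors quantified spliced counts with alevin (Salmon 1.3.0) against GRCm38, used Seurat 3.2.2, and removed outlying cells, cells with a high doublet score, mitochondrial genes and rarely detected genes. No further cell filter or doublet caller was applied. The deposited expression values are a signal on a linear scale, already normalized by the authors for the size of each cell's library. They do not give back counts, so no count model was used and cells could not be thinned to a fixed depth. The total UMIs deposited per cell are sums of estimated counts. The authors' table of cells also gives the cell-cycle position and the stages of Seurat and SchwabeCC. All per-sample columns were mapped to a culture, leaving 0 unmapped.

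Values were transformed as log2(value + 1), with a pseudocount of 1. Position was fitted with 2 harmonics within each culture and by periodic loess (span 0.3, degree 2) in R 4.3.3. Depth-matched numbers are the shares in cells without *Fosb*, weighted by the cells with *Fosb* over 10 classes of total UMIs. Other steps used Python 3.11.15, numpy 2.4.6, scipy 1.17.1, pandas 2.3.3 and matplotlib 3.10.9. Intervals are exact 95% Clopper-Pearson intervals and cover counting error only. A share of 0 is given with the limit that 3 counts allow. Gene positions are from GENCODE vM21 (GRCm38), and the promoter is from RefSeq. The R² step was run on simulated data of culture 1, where 200 of 200 changed genes and 0 of 1800 unchanged genes reached the threshold. In the changed genes a curve with a true R² above the threshold was added to every cell. This checks the computation only, and does not say whether a gene as sparse as *Fosb* could reach the threshold.

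The 10 members and all gene lists were chosen with earlier results of these data known. The genes named are the members, the 10 highest and 5 lowest by r with *Fosb*, and up to 4 per list by the size of r. The shares of cells are given in addition for all 18 other immediate early genes, and those of some cell type markers, and a few further genes were chosen after their values were seen. The planned values over pairs of members were not run because 1 member matched. The alternatives were each culture left out, other pseudocounts, thresholds, spans and harmonics, detection in place of values, and depth and position as covariates.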

Additional observations from a re-analysis of the deposited data

How the results depend on the processing

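Of 32 alternative values for 5 results, 26 were counted as unmoved and 6 as moved. The spread between the cultures was the yardstick for the share of cells, the lower R² of the cultures and the range of the line. The counts of members and of genes stayed at 0 throughout, so no spread entered there. The lower R² with culture 1 left out equals the main value by construction, and the count of members there is fixed with it. For the count of genes, an r threshold of 0.2 and the filter on genes in at least 10% of cells could only give 0. They select from a main count of 0, so their being unmoved carries no information. The 6 moved values include the range with a pseudocount of 0.1, which is on another scale. With 1 culture left out, the range of the *Fosb* line over the position was between 0.00914 and 0.0157, against 0.0179 over both. This range was 0.0333 with a span of 0.1 and 0.00735 with a span of 0.5, and the SD between the cultures was 0.00466. With a pseudocount of 0.1 it was 0.0595, which is on another scale and cannot be set against the other ranges or the SD. The R² of that line was 0.000980, against 0.00113 with a pseudocount of 1. The share of cells with *Fosb* fell from 3.67% to 1.23% when a value above 1 was asked for in place of a value above 0. Values are scaled to depth, so a cut at 1 also selects by the depth of the cell. The share with a value above 0 was 3.09% in cells with 13018 to 21147 UMIs, and the alternatives for this share were chosen after seeing the data. The number of members with an R² past the threshold stayed at 0 under each alternative run (thresholds of 0.02 and 0.01, a pseudocount of 0.1, detection, depth, 1 harmonic, each culture alone), and the number of genes with an r of at least 0.1 stayed at 0 under each alternative run for it. A filter on genes in at least 10% of cells for the R² was not run because it leaves no member, and alternatives over pairs of members or without *Jund* were not run because 1 member matched. What r or R² a gene detected in 3.67% of cells could reach at this depth was not measured.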
